A study of Mus musculus with 17 samples.

Results

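Choroid plexus taken after 3 days of dextran sodium sulfate (DSS), the group labelled T3, was compared with control choroid plexus, labelled CTRL. DSS, a sulfated polymer, damages the lining of the colon and serves as a model of colitis. The libraries were chosen by the time point label alone: 4 T3 and 5 CTRL libraries, 9 of the 17 in the series. All came from C57BL/6 mice, and total RNA was taken from whole choroid plexus dissected from the lateral ventricles and made into libraries with SMART-Seq v4, a kit for small amounts of RNA that amplifies cDNA by PCR. The series title states the 3 days of treatment; the labels say nothing further of what CTRL mice received, of age or sex, of the hour of dissection, or of whether the libraries within a group represent different animals. The p-values below therefore measure only the spread between libraries, in the main fit all 17 of the series. That spread may be technical.

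The choroid plexus is a sheet of ciliated, secretory epithelial cells over a core of fenestrated capillaries and stroma. It produces the cerebrospinal fluid and keeps it separate from the blood. Its epithelium exports large amounts of protein, which enter the secretory pathway through the endoplasmic reticulum, and it carries a strong molecular clock, in which Arntl (BMAL1) and its partners drive their own repressors and output genes over the day.

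Markers of the labelled tissue were present in every library. Ttr, the transthyretin gene that marks this epithelium, took 9.76 to 12.9% of the counts in CTRL and 6.61 to 11.5% in T3. Library totals were 16021690 to 25854664 counts in CTRL and 10881890 to 26839417 in T3. T3 replicate 4 stood apart from the other 8 libraries. At equal depth it held 26250 detected genes, against 19712 to 22954 in the others, and in 664 of 13909 genes it lay over 2-fold above the highest of the other 8, a count of 0 in each of T3 replicates 1 to 3. Its log2 CPM (CPM, counts per 1000000 counts of the library size scaled by TMM) correlated across genes at 0.917 to 0.931 with the other T3 libraries, which correlated at 0.976 to 0.981 with each other. Its Ttr share was the 6.61% given above, its mitochondrially encoded share of 2.03% was the lowest of the 9, and its neuron markers summed to 540 CPM, against 30.4 to 57.4 CPM for T3 replicates 1 to 3 and 19.7 to 152 CPM in CTRL. Its title carries the running number 32, those of the other T3 libraries run from 16 to 21 and those of CTRL from 1 to 8. T1 replicates 2 to 4 carry 28 to 30. The labels name no batch. CTRL libraries differed too: oligodendrocyte markers summed to 3641, 150.5, 98.0, 1645 and 7171 CPM in CTRL replicates 1 to 5. Lists and many single genes are therefore given with all 4 T3 libraries and again without T3 replicate 4. Where only 1 log2 fold change is printed for a gene, it is that with all 4 T3 libraries.

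**Figure D1:**
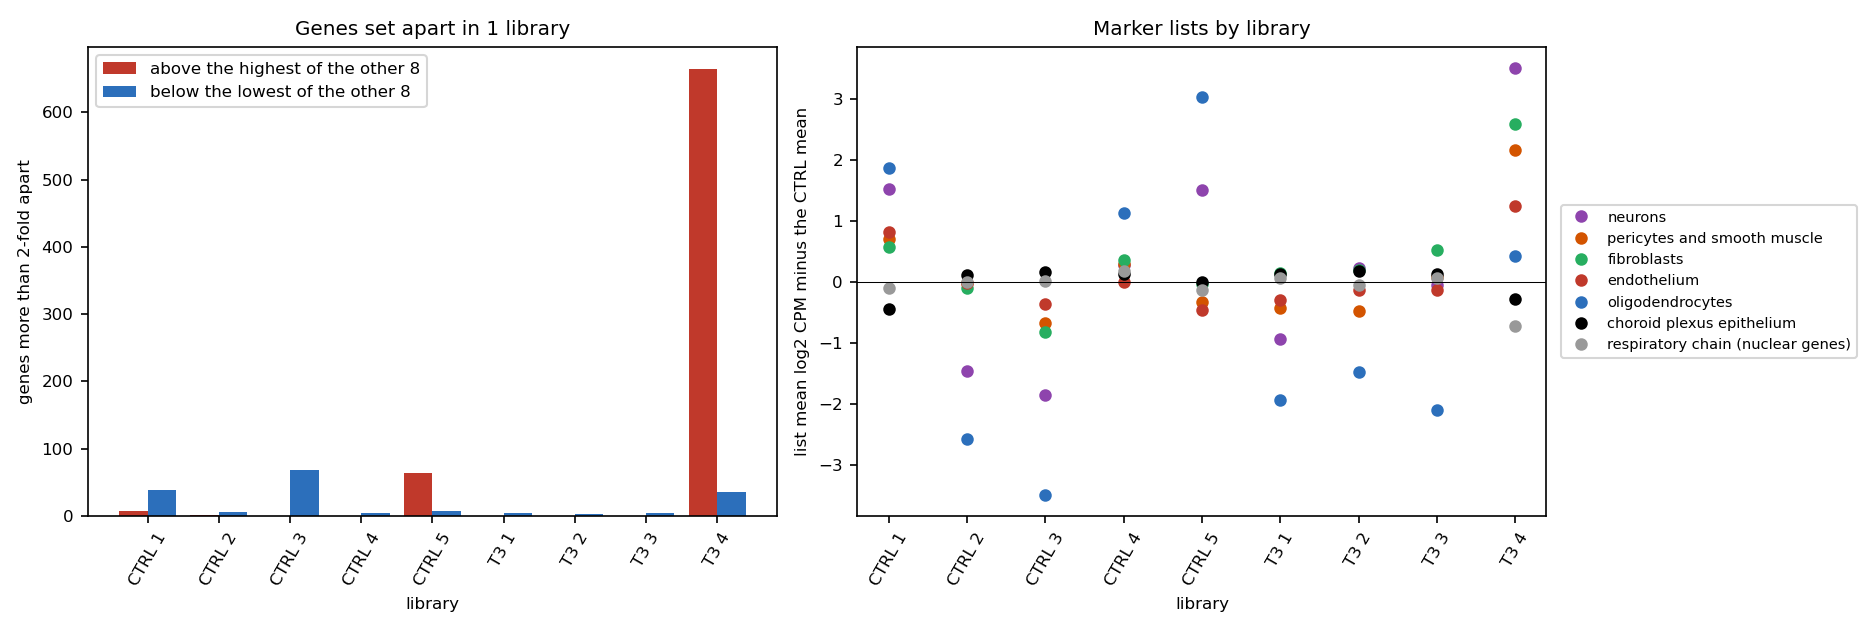
Left: for each of the 9 libraries, the number of genes (of 13909) in which it lay more than 2-fold above the highest or below the lowest of the other 8. Right: mean log2 CPM of 7 gene lists in each library, minus the CTRL mean; T3 replicate 4 had 664 genes above all others and the highest neuron, mural cell, fibroblast and endothelium values, and the lowest respiratory chain value.

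No gene passed the threshold between T3 and CTRL. edgeR's quasi-likelihood test called 0 of 16851 genes at a Benjamini-Hochberg adjusted p of 0.05; the lowest adjusted p was 0.59, for Arntl. Unadjusted p-values under 0.05 were found for 838 genes (4.97%), 539 higher in T3 (3.2%) and 299 lower (1.77%). Without T3 replicate 4 edgeR again called 0 genes, of 16887, with a lowest adjusted p of 0.996. Unadjusted p-values under 0.05 then came to 574 (3.4%), with the balance on the other side, 220 higher (1.3%) and 354 lower (2.1%). Of 833 genes under 0.05 in the first fit and tested in both, 303 were under 0.05 in both, and 27 changed sign. limma-voom called 0 genes, with 1142 under an unadjusted 0.05. DESeq2 called 2, Arntl (higher, adjusted p = 0.00313) and Dbp (lower, adjusted p = 0.0438), both clock genes, with 994 genes under an unadjusted 0.05; without T3 replicate 4 it called 0, with a lowest adjusted p of 0.119. The groups' CPM did not overlap in 287 genes (1.7%), 132 higher (0.783%) and 155 lower (0.92%) in T3. Without T3 replicate 4 this held for 740 genes (4.39%), 383 higher (2.27%) and 357 lower (2.12%). Apart from Arntl, every gene named below had an edgeR adjusted p of 0.911 or more with all libraries, and every gene named, Arntl included, had 0.996 or more without T3 replicate 4. Differences below are thus descriptions of these 9 libraries, and none passed the edgeR test.

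**Figure D2:**
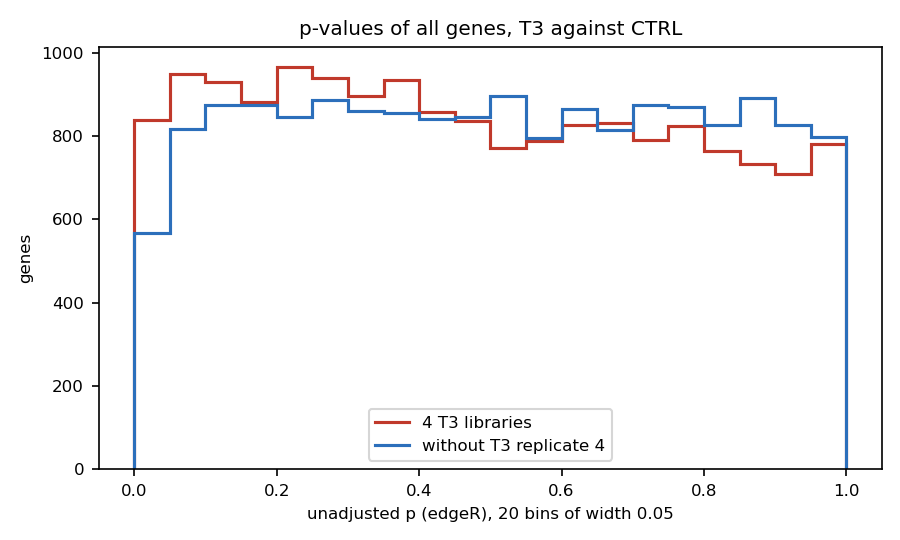
Unadjusted edgeR p-values of the 16851 genes tested with all libraries, in 20 bins of width 0.05, with all 4 T3 libraries (red) and without T3 replicate 4 (blue, for those of these genes tested there). The bin under 0.05 held 838 and 567 genes, below the next bin (949 and 818) in each.

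The largest separation relative to spread was in the clock. Arntl, the transcription factor at the head of the clock's positive limb (chromosome 7, 113207465 to 113314126, plus strand, GRCm38), stood at 9.99, 14.9, 17.3, 17.2 and 14.6 CPM in CTRL replicates 1 to 5 and at 30.5, 36.1, 24.3 and 35.6 CPM in T3 replicates 1 to 4. Every T3 library lay above every CTRL library, T3 replicate 4 among the others. Its mean was 14.8 ± 2.96 CPM in CTRL (SD, n = 5) and 31.6 ± 5.51 CPM in T3 (SD, n = 4), 2.14-fold higher. The log2 fold change was 1.10 ± 0.20 (SE) with edgeR's quasi-likelihood test (unadjusted p = 3.5e-05, adjusted p = 0.59), and 1.03 ± 0.21 without T3 replicate 4 (unadjusted p = 0.000128). Dbp, a PAR bZIP factor that is a direct output of the clock (chromosome 7, 45705088 to 45710203, plus strand), was the mirror image. It stood at 45.9, 27.6, 27.8, 32 and 33 CPM in CTRL and at 12.6, 14.8, 21.2 and 13.9 CPM in T3. All 4 T3 libraries lay below all 5 CTRL libraries, and CTRL replicate 1 was the highest. The log2 fold change was -1.08 ± 0.23 (edgeR's quasi-likelihood test, unadjusted p = 0.000223, adjusted p = 0.911) and -1.04 ± 0.26 without T3 replicate 4. With each library's mean level of neuron, astrocyte and oligodendrocyte markers as a covariate, to allow for adhering brain tissue, the log2 fold changes were 1.10 for Arntl and -1.06 for Dbp.

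Other clock factors differed by less. Npas2, which can stand in for Clock as Arntl's partner, stood at 9.32, 20.3, 12.9, 11.5 and 10.8 CPM in CTRL and 17.7, 18.8, 20.05 and 27.2 CPM in T3. Only CTRL replicate 2 reached the T3 values, and the log2 fold change was 0.69 ± 0.23, or 0.53 ± 0.23 without T3 replicate 4. Nfil3, a bZIP repressor that opposes Dbp at the same sites, had 21.2 to 35.5 CPM in CTRL and 27.6 to 43.7 CPM in T3, with overlap and a log2 fold change of 0.37 (0.40 without T3 replicate 4). Tef, a PAR bZIP relative of Dbp, stood at 117, 75.1, 92.3, 81.2 and 101 CPM in CTRL and 56.2, 72.7, 68.8 and 88.9 CPM in T3. T3 replicates 1 to 3 lay below all CTRL libraries and T3 replicate 4 did not; the log2 fold change was -0.38 ± 0.17 with it and -0.51 ± 0.18 without it. Bhlhe41 (DEC2), a repressor of Clock-driven genes, showed the same arrangement more clearly, with 4.28 to 7.91 CPM in CTRL, 2.56 to 3.18 CPM in T3 replicates 1 to 3 and 6.39 CPM in T3 replicate 4. Its log2 fold change was -0.57 ± 0.27, and -0.95 ± 0.25 without that library. Timeless, the mammalian relative of the fly clock gene that also acts at replication forks, had values of 3.25 to 5.70 CPM in CTRL and 1.32 to 3.50 CPM in T3; its log2 fold change was -0.79, and -1.04 with no overlap once T3 replicate 4 was left out.

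The remaining clock genes overlapped between the groups. Clock itself had a log2 fold change of 0.05 ± 0.16. It ran from -0.04 to 0.14 when 1 library at a time, T3 replicate 4 among them, was left out. The period genes, the clock's light-responsive repressors, stood at -0.12 (Per1), -0.13 (Per2) and -0.11 (Per3). Over the same omissions they ran from -0.40 to 0.05 (Per1), -0.29 to 0.03 (Per2) and -0.55 to 0.14 (Per3). Their partners stood at 0.30 (Cry1, 0.12 to 0.45 over these omissions) and 0.09 (Cry2), and Cry2 became -0.10 without T3 replicate 4. The nuclear receptors that repress Arntl stood at -0.24 (Nr1d1) and -0.13 (Nr1d2), and Rora, which activates it, at -0.06. Their ranges over these omissions were -0.36 to -0.11, -0.20 to -0.04 and -0.13 to 0.01. Ciart, an Arntl-Clock repressor of low level, had -0.68 ± 0.50, and -0.97 to -0.40 over these omissions. Hlf, the third PAR bZIP gene, had 0.47, which became -0.04 without T3 replicate 4. The list of the activating limb and its feedback loop also holds repressors, among them Nr1d1, Nr1d2, Nfil3 and Bhlhe41. Of its 12 genes 7 were positive (52.7% of all genes were, and 44.4% without T3 replicate 4). The median was 0.11, and 2 were higher at an unadjusted p under 0.05, against 3.2% of all genes. Without T3 replicate 4 the count was 5, the median -0.13, and 3 were higher and 1 lower at that p. Of 13 repressors and outputs 5 were positive, with a median of -0.11 (-0.26 without T3 replicate 4) and 3 lower at an unadjusted p under 0.05 in either fit, against 1.77% and 2.1% of all genes. With T3 replicate 4 kept, this sign rested on single controls. The median was 0.030 without CTRL replicate 1 and 0.021 without CTRL replicate 3, with 7 of 13 positive and 1 lower at that p in each. With CTRL replicate 1 and T3 replicate 4 both left out it was -0.24, with 4 of 13 positive and 3 lower, against 245 of 16950 of all genes. Leaving out CTRL replicate 3 together with T3 replicate 4 was not tested. The medians of all genes tested were 0.02 and -0.03. The hour at which each animal was killed is not in the labels, so DSS and time of day cannot be told apart here.

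**Figure D3:**
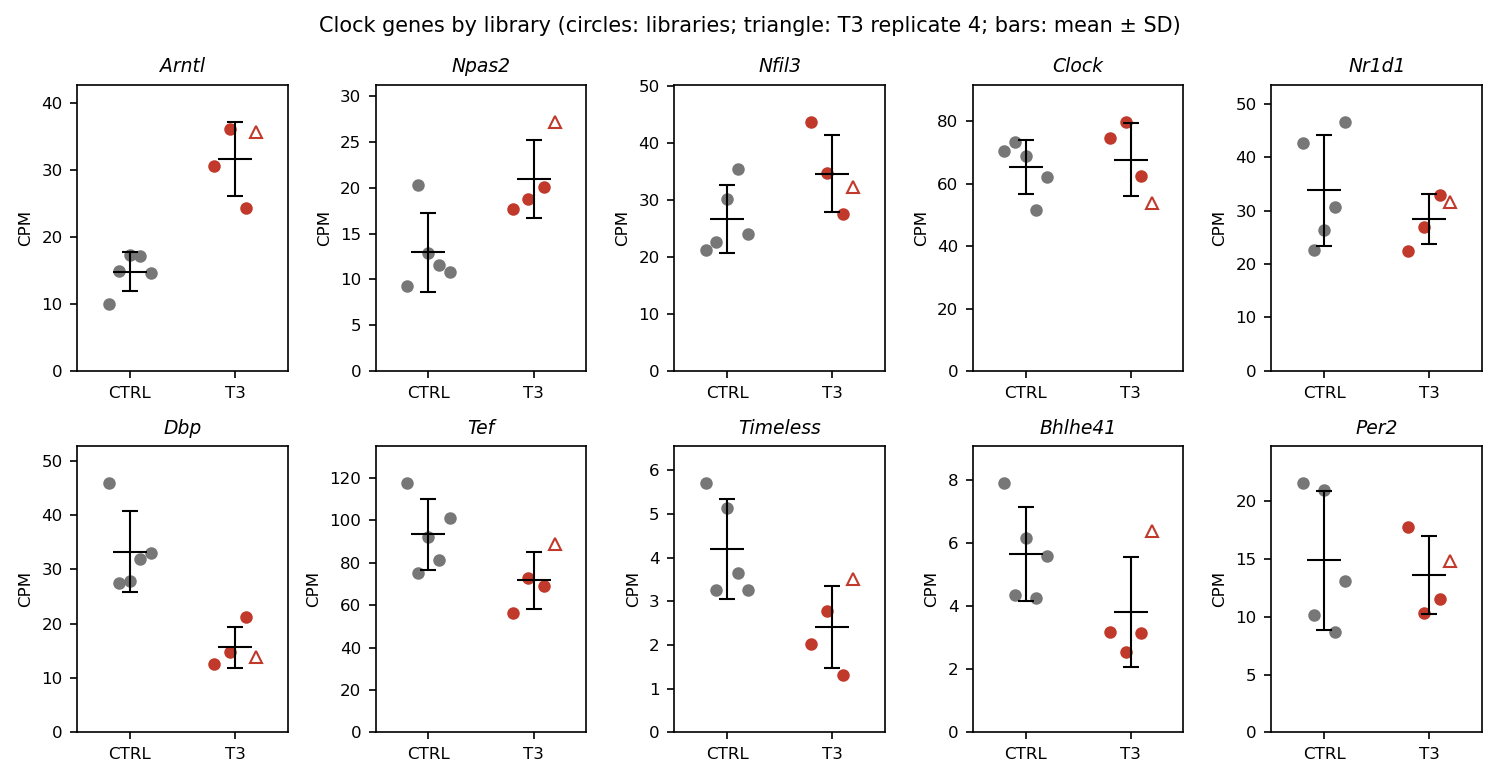
CPM of 10 clock genes in each CTRL (n = 5) and T3 (n = 4) library; the open triangle is T3 replicate 4 and bars are mean ± SD. Arntl (24.3 to 36.1 CPM in T3, 9.99 to 17.3 in CTRL) and Dbp (12.6 to 21.2 and 27.6 to 45.9) do not overlap; Clock, Nr1d1 and Per2 do.

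The promoters of these genes carry the short sequences through which the clock is known to loop. They are shown for Arntl, which separated, for Bhlhe41 and Tef, which separated without T3 replicate 4, and for Nfil3 and Cry1, which overlapped, so that both kinds can be seen beside the element they hold. Windows of 30 bases were taken from RefSeq promoters (GRCm38.p6, 250 bases before to 50 after each start). These held 10 of the 12 genes of the activating limb and its feedback loop and 10 of the 13 repressor and output genes. Both strands were searched and capitals mark the match. The ROR element, AGTAGGTNA, the target of Ror and Nr1d receptors, was found in 0.699% of 27025 genes. It was in 2 of the 10 genes of the first list, Arntl and Nfil3. The E-box, CACGTG, which reads the same on both strands, is the target of Arntl with Clock or Npas2. It was found in 8.09% of genes, in Bhlhe41 of the first list and in 4 of the 10 repressors and outputs (Ciart, Cry1, Per1 and Tef). None of the matches printed shares a base with a match of another motif searched.
Arntl, chr7:113207493-113207522, plus strand, ROR element 8 bases before a start: ttggtcggaaAGTAGGTTAgtggtgcgaca
Arntl, chr7:113207529-113207558, plus strand, ROR element at base 29 after the same start: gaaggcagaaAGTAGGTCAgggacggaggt
Nfil3, chr13:52981032-52981061, plus strand: agatgtgtgttAGTAGGTCAgttccgagcg
Bhlhe41, chr6:145865556-145865585, minus strand: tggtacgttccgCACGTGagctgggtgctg
Tef, chr15:81802534-81802563, plus strand: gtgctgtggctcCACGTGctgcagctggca
Cry1, chr10:85185097-85185126, minus strand: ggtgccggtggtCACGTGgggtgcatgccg
Arntl and Nfil3, the holders of the ROR element, had higher mean CPM in T3, while of the 5 E-box genes Bhlhe41, Tef, Ciart and Per1 had negative log2 fold changes and Cry1 a positive one. Per1 was 0.03 without CTRL replicate 3 and 0.05 without T3 replicate 3. The D-box, TTANGNAA, was searched as well and found in 13.1% of genes. It was in 2 of the 10 genes of the first list (Arntl, Rorb) and 3 of the 10 of the second (Per1, Per3, Timeless). A link between element and direction was not tested. The Dbp window held no CACGTG, which says only that these letters are not in it. A match is a description of the sequence and not evidence of binding.

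The second pattern was in the endoplasmic reticulum. Genes of the unfolded protein response, the programme by which a secretory cell raises its chaperones and its disposal machinery, had mostly positive log2 fold changes: 21 of 24, with a median of 0.19, and again 21 of 24, with a median of 0.26, without T3 replicate 4. At an unadjusted p under 0.05 3 were higher, and 4 without T3 replicate 4, against 3.2% and 1.3% of all genes; none passed the adjusted threshold. The count was 1 without CTRL replicate 1, CTRL replicate 3, T3 replicate 2 or T3 replicate 3. Sel1l, the adaptor of the ligase complex that removes misfolded proteins (chromosome 12, 91806043 to 91849157, minus strand), stood at 74.6, 140, 134, 132 and 138 CPM in CTRL and 166, 188, 195 and 189 CPM in T3. All 4 T3 libraries were above all CTRL libraries, and CTRL replicate 1 was far below the other controls. The log2 fold change was 0.58 ± 0.17 (edgeR's quasi-likelihood test, unadjusted p = 0.00298, adjusted p = 0.911), 0.56 ± 0.18 without T3 replicate 4, and 0.44 without CTRL replicate 1. Xbp1, the transcription factor activated by splicing in this response, stood at 239, 221, 267, 286 and 300 CPM in CTRL and 388, 355, 412 and 245 CPM in T3. T3 replicates 1 to 3 exceeded every CTRL library and T3 replicate 4 lay among them, so the log2 fold change of 0.42 ± 0.18 was 0.55 ± 0.17 without it. Gene counts do not separate the spliced from the unspliced Xbp1 transcript.

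Groups did not overlap for 3 of the 24 genes (Sel1l, Dnajc3 and Canx), against 0.783% of all genes. Dnajc3, a co-chaperone that restrains the kinase arm of the response, stood at 355 to 455 CPM in CTRL and 461 to 551 CPM in T3, with log2 fold changes of 0.27 ± 0.12 and 0.30 without T3 replicate 4. Canx, the lectin chaperone calnexin, stood at 445 to 769 CPM and 775 to 856 CPM, with 0.30 ± 0.15 and 0.32. Without T3 replicate 4 the groups did not overlap for 10 of 24 genes that were higher in T3, against 2.27% of all genes. The further 7 were Xbp1, Creld2, Dnajb9, Pdia3, Hsp90b1, Pdia6 and Hspa5, which the naming rule did not reach except for Xbp1 and which were named after their values were seen. Hspa5 (BiP), the central chaperone of the compartment, stood at 1818, 2816, 2613, 2820 and 2332 CPM in CTRL and 2853, 2986, 3253 and 2100 CPM in T3, with log2 fold changes of 0.17 and 0.29. Its T3 replicates 1 to 3 sat just above the highest control. Creld2, a secreted response gene, had 66.8 to 118 CPM in CTRL and 119 to 143 CPM in T3 replicates 1 to 3, against 81.1 CPM in T3 replicate 4, with 0.32 and 0.46. Genes tied to Atf4, a translation-controlled factor of this response, had values on both sides of 0. Eif2ak3 (PERK), the kinase upstream of it, had a log2 fold change of 0.43, or 0.47 without T3 replicate 4. Atf4 had -0.04, its target Ddit3 (CHOP) -0.32, and Asns, asparagine synthetase, 0.03, or -0.49 without T3 replicate 4, where its 3 T3 values (4.72 to 6.32 CPM) lay below all CTRL values (6.74 to 9.13 CPM).

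The level of epithelium markers varied alongside these genes. The mean log2 CPM of the 15 epithelium markers was 9.94, 10.50, 10.55, 10.51 and 10.39 in CTRL replicates 1 to 5 and 10.52, 10.56, 10.51 and 10.10 in T3 replicates 1 to 4. The mean of the 24 unfolded protein response genes was 6.68, 6.99, 7.07, 7.09 and 7.02 in CTRL and 7.18, 7.16, 7.29 and 6.95 in T3. CTRL replicate 1 was lowest on both scales and T3 replicate 4 next lowest on both. The share of epithelium in each library was not tested as the source of the pattern. Leaving out CTRL replicate 1 gave a median of 0.11, and leaving out both libraries gave 0.18, with 21 of 24 positive in each case; over the epithelium markers the median was 0.04 with all libraries, 0.15 without T3 replicate 4 and 0.06 without both. With the brain markers as a covariate the median of the unfolded protein response genes was 0.18.

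**Figure D4:**
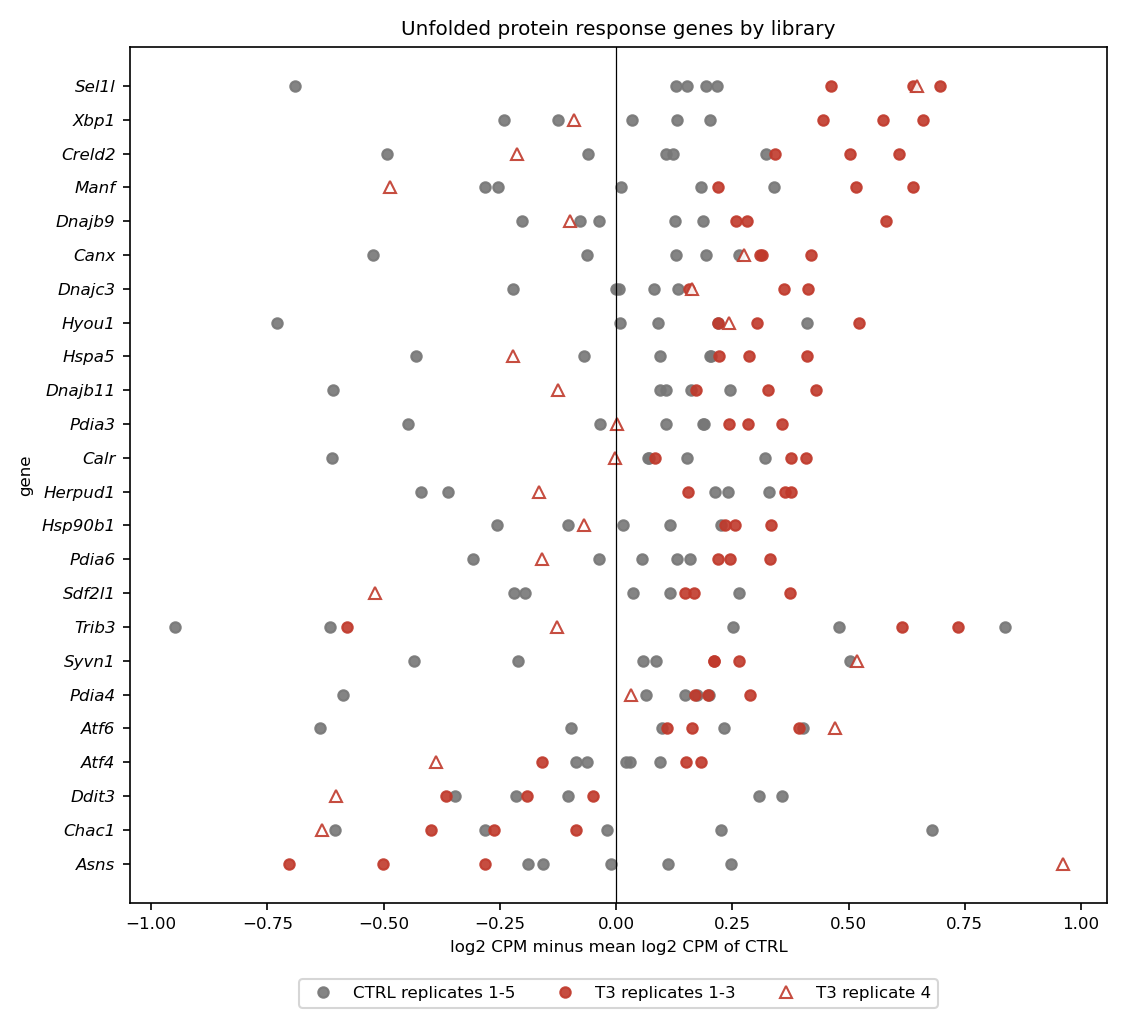
Log2 CPM of the 24 unfolded protein response genes in each library, minus the mean log2 CPM of CTRL; grey circles are CTRL replicates 1 to 5, red circles T3 replicates 1 to 3 and open triangles T3 replicate 4. For 10 genes the 3 red circles lie to the right of every grey circle, and for Asns to the left.

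The ER stress element through which the factors Atf6 and Xbp1 act was searched in the same promoters, a search added after the values were seen. It reads CCAAT, then 9 bases of any kind, then CCACG, and was found on either strand in 37 of 27025 genes (0.137%) and in 8 of the 21 unfolded protein response genes with a RefSeq promoter. Those printed are the matches of genes whose T3 replicates 1 to 3 lay above all controls.
Hspa5, chr2:34772020-34772049, plus strand: cttcaCCAATCGGAGGCCTCCACGacgggg
Canx, chr11:50325794-50325823, minus strand: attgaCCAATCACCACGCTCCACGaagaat
Dnajc3, chr14:118937822-118937851, plus strand: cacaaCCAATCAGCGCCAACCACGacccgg
Pdia6, chr12:17266486-17266515, plus strand: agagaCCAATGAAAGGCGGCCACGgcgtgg
Creld2, chr15:88819515-88819544, minus strand: tgtggaCCAATTGAGGCTCGCCACGagaag
Hsp90b1, chr10:86705632-86705661, minus strand: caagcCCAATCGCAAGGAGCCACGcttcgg
Hsp90b1, its other match, chr10:86705527-86705556, plus strand: aactcaCCAATCGTGCCTCACCACGcactc
Calr and Syvn1, the other genes with a match, overlapped between the groups, with log2 fold changes of 0.20 and 0.27. Sel1l, which separated with all libraries, and Xbp1, which separated without T3 replicate 4, had no match in their windows. The list was built from known genes of this response, so its share of matches is a property of the list and not a result of DSS.

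A wider set of 59 genes of protein translocation, export and quality control, drawn up after the values were seen, had 43 positive log2 fold changes and a median of 0.09, with 9 higher (3.2% of all genes) and 0 lower (1.77%) at an unadjusted p under 0.05. Without T3 replicate 4 the figures were 52 positive, a median of 0.14 and 5 higher (1.3% of all genes), and 6 had higher values with no overlap (2.27% of all genes). Because the set was drawn up with these values known, its counts cannot be read against the shares of all genes. Creb3l2, a membrane-bound transcription factor that drives genes of secretory transport, stood at 20.1, 23.5, 22.8, 22.1 and 23.8 CPM in CTRL and 26.3, 34.8, 28.9 and 41.6 CPM in T3. Its groups were apart with T3 replicate 4 highest, and the log2 fold change was 0.55 ± 0.14, or 0.41 ± 0.13 without it. Edem1, which hands misfolded glycoproteins to disposal, had 0.47 and 0.46 without T3 replicate 4. Sec16a, a scaffold of the sites where vesicles leave the compartment, had 0.50 and 0.40. Stt3b, a catalytic subunit of the glycosylation complex, stood at 88.9 to 148 CPM in CTRL and 151 to 165 CPM in T3, without overlap, and had 0.29 and 0.27.

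Besides Arntl, Sel1l and Creb3l2, the genes with non-overlapping higher values and the smallest p in both fits were of moderate size. Fastkd2, which acts in mitochondrial ribosome assembly, had means of 29.3 ± 3.07 CPM in CTRL (SD, n = 5) and 39.5 ± 5.05 CPM in T3 (SD, n = 4), the lowest T3 and the highest CTRL library all but touching, with log2 fold changes of 0.43 ± 0.13 and 0.50 without T3 replicate 4. Unc13b, a priming factor for vesicle release, had 36.5 to 48.9 CPM in CTRL and 49.0 to 66.4 CPM in T3, with 0.47 ± 0.14 and 0.52. Twsg1, a secreted modulator of bone morphogenetic proteins, had 96.0 to 133 and 146 to 192 CPM, with 0.47 ± 0.12 and 0.39, and Hsdl1, a dehydrogenase-like protein, 0.30 in both fits.

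The same rule named 8 lower genes, Dbp among them. Gna12, a G protein alpha subunit, stood at 104, 83.9, 82.4, 78.7 and 124 CPM in CTRL and 49.4, 55.3, 41.5 and 44.2 CPM in T3. The means were 94.6 ± 19.1 CPM (SD, n = 5) and 47.6 ± 6.12 CPM (SD, n = 4), with no overlap, and the log2 fold change was -0.99 ± 0.25, or -0.96 ± 0.29 without T3 replicate 4. Rhou, an atypical small GTPase, stood at 5.00 to 11.9 CPM in CTRL and 2.83 to 4.78 CPM in T3, with -1.37 ± 0.42 and -1.60. Rapgef1, an exchange factor for Rap1, had 13.5 to 17.2 and 7.51 to 9.50 CPM, with -0.70 ± 0.18 and -0.73. Arhgdig, an inhibitor of small GTPase cycling, had 35.8 to 41.7 and 19.9 to 28.5 CPM, with -0.60 ± 0.14 and -0.50. Triobp, which bundles actin, had -0.42 and -0.49, and Kmt5a, a histone H4 lysine methyltransferase, -0.38 and -0.42. In CTRL replicates 1 and 5, where oligodendrocyte markers were highest, Gna12 and Rhou were also highest; with the brain marker covariate their log2 fold changes were -0.95 and -1.36.

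Genes of ependymal cells, the ciliated cells that line the ventricle beside the plexus, had lower values in T3. The log2 fold change was positive in only 1 of 15 markers, the median being -0.37, and 4 were lower at an unadjusted p under 0.05, against 1.77% of all genes; without T3 replicate 4, 3 were positive, the median was -0.20 and 2 were lower at that p. Spag17, a protein of the central pair of the motile axoneme, was low in every library but did not overlap: 2.43, 2.10, 1.26, 1.26 and 3.36 CPM in CTRL and 0.578, 0.737, 0.594 and 0.453 CPM in T3, with a log2 fold change of -1.80 ± 0.46, and -1.70 ± 0.52 without T3 replicate 4. Foxj1, the transcription factor that switches on motile cilia in ependyma and choroid plexus alike, stood at 77.2, 71.2, 113, 105 and 84.0 CPM in CTRL and 72.1, 70.4, 56.9 and 48.9 CPM in T3. T3 replicate 4 was lowest and T3 replicates 1 and 2 lay at the bottom of the control range; the log2 fold change was -0.54 ± 0.16, or -0.44 ± 0.16 without T3 replicate 4. Tmem212 and Ccdc153, which are more specific to ependyma, varied over more than an order of magnitude within CTRL (0.589 to 28.99 and 2.27 to 25.01 CPM), and their T3 values of 0.594 to 5.62 and 1.10 to 7.90 CPM overlapped them. In bulk tissue, fewer cells of a type and less RNA per cell cannot be told apart.

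Axonemal genes at large showed smaller differences. Of 32 genes of the motile cilium's structure 9 were positive, with a median of -0.15 (-0.09 without T3 replicate 4), and 2 were lower at an unadjusted p under 0.05 in either fit, against 1.77% and 2.1% of all genes. Cfap54, of the central apparatus, stood at 32 to 34.9 CPM in CTRL and 25.5 to 31.0 CPM in T3, a narrow separation with a log2 fold change of -0.27 ± 0.10. Tekt2, a tektin inside the axonemal microtubules, had -0.61 ± 0.27, and -0.69 without T3 replicate 4, where its groups no longer overlapped. Of 30 genes of cilium assembly and multiciliation 7 were positive, with a median of -0.09 (-0.06), and 3 were lower at that p (2 without T3 replicate 4), against the same shares. Foxj1 was one of them, and Deup1, which builds the many centrioles of such cells, had 1.49 to 4.03 CPM in CTRL and 0.963 to 2.05 CPM in T3, with -0.95 ± 0.40 and -1.04.

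Stress genes outside the endoplasmic reticulum differed in both directions. The inducible Hspa1a stood at 4.52, 5.28, 14.0, 11.2 and 6.56 CPM in CTRL and 4.14, 4.11, 4.84 and 5.56 CPM in T3, and its near-identical neighbour Hspa1b behaved alike, so that reads may be shared between them. CTRL replicates 3 and 4 carried the higher values, and the log2 fold changes were -0.83 ± 0.29 and -1.12 ± 0.43 (-0.93 and -1.18 without T3 replicate 4). Hsph1, a partner of these chaperones, lay the other way, with log2 fold changes of 0.28 and 0.35. It had 180 to 270 CPM in CTRL, 282 to 304 CPM in T3 replicates 1 to 3 and 235 CPM in T3 replicate 4. Of 20 heat shock genes 9 were positive, with a median of -0.02, and 14 were positive with 0.06 without T3 replicate 4. With all libraries the groups did not overlap for 0 of the 20. Without T3 replicate 4 they did not overlap for 4, higher in T3 (2.27% of all genes), and 0 were lower without overlap (2.12%). Non-overlapping higher values were thus not confined to genes of the endoplasmic reticulum. Mt1, a metallothionein that binds zinc and is induced by glucocorticoids, stood at 232, 142, 140, 225 and 266 CPM in CTRL and 144, 145, 138 and 123 CPM in T3. Its T3 values matched CTRL replicates 2 and 3 and lay under CTRL replicates 1, 4 and 5, the libraries highest in oligodendrocyte markers; the log2 fold change was -0.55 ± 0.22, or -0.51 without T3 replicate 4. Hmox1, heme oxygenase, had -0.34 ± 0.15 and -0.27. Of 23 glucocorticoid response genes 11 were positive, with a median of 0.00, and 5 with -0.26 without T3 replicate 4.

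Among inflammatory genes, the interferon-induced GTPases leaned on T3 replicate 4 in the edgeR fits. Of 15 interferon-induced GTPases, which attack intracellular microbes, 13 were positive, with a median of 0.52. At an unadjusted p under 0.05 2 were higher, against 3.2% of all genes. Without T3 replicate 4, 10 were positive, the median was 0.15 and 0 reached that p. With limma-voom the median was 0.23, and 0.27 without T3 replicate 4. In the latter 12 were positive and 2 were higher at that p, against 609 of 16887 of all genes. With edgeR and CTRL replicate 1 also left out, 13 were positive, the median was 0.24 and 0 reached that p. Iigp1 stood at 3.95, 1.49, 2.69, 2.96 and 3.03 CPM in CTRL and 2.89, 4.15, 6.16 and 7.62 CPM in T3, with a log2 fold change of 0.89 ± 0.37, or 0.64 ± 0.38 without T3 replicate 4. Gbp4 stood at 0.378 to 2.09 CPM in CTRL, 1.28 to 2.15 CPM in T3 replicates 1 to 3 and 9.11 CPM in T3 replicate 4, with 1.72 and 0.67. T3 replicate 4 was the highest library in both genes, and in 10 of the 15 (27.8% of all genes tested). Of 29 genes of interferon gamma signalling and antigen presentation 19 were positive (median 0.15, or 0.10 without T3 replicate 4, 0.048 without T3 replicate 3 and 0.074 without CTRL replicate 5), and of 28 type I interferon response genes 20 (0.20, or 0.04). Jak1, a kinase of both receptors, stood at 71.9 to 83.9 CPM in CTRL and 81.4 to 97.5 CPM in T3, with 0.25 ± 0.11 and 0.22. Cd74, the invariant chain of class II molecules, stood at 42.2 to 101 CPM and 87.0 to 95.4 CPM, with 0.31 ± 0.24 and 0.32.

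Receptors of acute inflammation were measured too. Il1r1, the interleukin 1 receptor, stood at 30.8, 56.8, 49.7, 44.8 and 52.1 CPM in CTRL and 62.3, 60.4, 64.1 and 61.2 CPM in T3. The T3 libraries were close together and above all controls, with CTRL replicate 1 lowest. The log2 fold change was 0.40 ± 0.19 and 0.41 ± 0.20 without T3 replicate 4. Of 25 acute phase, NF-kB and cytokine genes it was the 1 that was higher without overlap, against 0.783% of all genes. Il6st (gp130), the shared receptor of interleukin 6 cytokines, had 58.3 to 69.5 CPM in CTRL, 63.2 to 82.1 CPM in T3 replicates 1 to 3 and 140 CPM in T3 replicate 4, with 0.52 ± 0.19 and 0.22 ± 0.14. Lcn2, an acute phase product of this epithelium under systemic inflammation, stayed at 0.336 to 2.02 CPM in CTRL and 0.482 to 3.38 CPM in T3, with 0.82 ± 1.29, and -0.26 ± 1.49 without T3 replicate 4. The 95% interval of the first ran from -1.72 to 3.36, so a difference of this gene was not detectable here in either direction. Over 25 acute phase, NF-kB and cytokine genes the median was 0.13 and 0.03 without T3 replicate 4, and over 17 complement genes 0.20 and -0.06. Neutrophil and lymphocyte markers were near the limit of detection: 6 of 12 and 6 of 15 passed the filter on low counts.

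The capillaries of the plexus are fenestrated and let plasma proteins into the stroma. Plvap, which forms the diaphragms of the fenestrae, stood at 45.6, 43.0, 34.9, 34.4 and 17.1 CPM in CTRL and 22.3, 25.1, 27 and 17 CPM in T3. CTRL replicates 1 to 4 lay above all T3 libraries and CTRL replicate 5 lay among them; the log2 fold change was -0.62 ± 0.35 (edgeR's quasi-likelihood test, unadjusted p = 0.0946) and -0.50 ± 0.39 without T3 replicate 4. Cldn5, the claudin of tight endothelial junctions, stood at 3.53 to 15.98 CPM in CTRL, 7.13 to 14.1 CPM in T3 replicates 1 to 3 and 45.7 CPM in T3 replicate 4, with log2 fold changes of 1.2 and 0.25. Pecam1, Cdh5 and Kdr, which mark endothelium, had 0.40, 0.17 and 0.30 with all libraries and -0.29, -0.47 and 0.02 without T3 replicate 4. Of 25 genes of the fenestrated capillary and vascular barrier 21 were positive, with a median of 0.22; without that library 11 were positive, with -0.05. The endothelium markers themselves had a list mean of 4.29 log2 CPM in T3 replicate 4, against 2.75 to 2.91 in the other T3 libraries and 2.57 to 3.86 in CTRL.

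Most epithelial barrier genes differed little. The largest value of the junction list was that of Cdh1, E-cadherin, at 1.92 to 8.2 CPM in CTRL, 5.202 to 6.804 CPM in T3 replicates 1 to 3 and 66.6 CPM in T3 replicate 4, with 2.28, or 0.50 without that library. Cldn1, a sealing claudin, stood at 226 to 392.3 CPM in CTRL and 315 to 475 CPM in T3 (0.26 ± 0.17, and 0.33 ± 0.17 without T3 replicate 4); Cldn2, which forms cation and water pores, had 0.08 and 0.14, and Cldn3 -0.20 and -0.04. Ocln, occludin, had 103 to 189 CPM in CTRL and 175 to 194 CPM in T3, with 0.25 in both fits. Tjp1 (ZO-1) stood at 15.4 to 32.7 CPM in CTRL, 21.9 to 23 CPM in T3 replicates 1 to 3 and 61.7 CPM in T3 replicate 4, so that its log2 fold change of 0.40 became -0.13. Of 21 epithelial junction genes 16 were positive (median 0.13), and 15 (0.14) without T3 replicate 4. Without CTRL replicate 1 the median was 0.01.

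Of 25 genes of fluid secretion 2 were higher in T3 without overlap, with all libraries and also without T3 replicate 4. The shares of all genes were 0.783% and 2.27%. A bicarbonate carrier was 1 of the 2. Slc4a7, a sodium bicarbonate cotransporter, stood at 12.6, 12.3, 12.8, 11 and 10.7 CPM in CTRL and 14.2, 19.9, 13.9 and 19.5 CPM in T3, with a log2 fold change of 0.51 ± 0.19, or 0.43 ± 0.21 without T3 replicate 4. Over 25 genes of fluid secretion the median was 0.14, and 0.11 without T3 replicate 4. Aqp1, the apical water channel, had -0.18, and Slc12a2, the sodium, potassium and chloride carrier that moves much of the fluid, 0.16. Among growth factors and hormone receptors 18 of 22 were positive (median 0.20; 17 and 0.11 without T3 replicate 4). Bmp4 stood at 20.02 to 29.05 CPM in CTRL and 24.8 to 39.8 CPM in T3, with 0.46 ± 0.19 and 0.45 ± 0.21. Lepr, the leptin receptor, stood at 99.3 to 139 and 142 to 157 CPM without overlap, with 0.28 and 0.25. Of these 22 genes 1 was higher without overlap, and 2 without T3 replicate 4, against the same shares of all genes. Axin2, the usual readout of Wnt signalling, had -0.33 ± 0.25 and -0.35.

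Red cell and myelin transcripts were lower on average in T3. Of 10 erythrocyte genes 2 were positive, with a median of -0.50; without T3 replicate 4 1 was positive, the median was -0.86, and 4 were lower at an unadjusted p under 0.05, against 2.1% of all genes. Without CTRL replicate 4, or without T3 replicate 2, the median was -0.30 or -0.31. Alas2, the first enzyme of heme synthesis in red cells, stood at 32.7, 40.2, 15.7, 49.0 and 38.5 CPM in CTRL and 15.9, 16.1, 15.6 and 35.1 CPM in T3. T3 replicates 1 to 3 were together at the level of CTRL replicate 3 and T3 replicate 4 was at that of the other controls; the log2 fold change was -0.76 ± 0.38, or -1.15 ± 0.39 without it. Hbb-bs, a beta globin whose reads near-identical globins can share, had -0.69 ± 0.34 and -0.83. Bpgm, which sets the oxygen affinity of hemoglobin, was the 1 of 10 erythrocyte genes whose groups did not overlap (69.6 to 78.0 CPM in CTRL, 58.4 to 69.4 CPM in T3), with -0.19. Of all genes 0.92% were lower without overlap. All 12 oligodendrocyte markers were negative, with a median of -2.51 (-3.61 without T3 replicate 4). At an unadjusted p under 0.05 with edgeR 0 and 1 were lower, against 1.77% and 2.1% of all genes. With DESeq2 7 and 11 were lower, against 349 of 16851 and 498 of 16887 of all genes. The median was -1.40 without CTRL replicate 5 and -1.21 with limma-voom. Mbp, myelin basic protein, stood at 1897, 71.4, 51.5, 767 and 3441 CPM in CTRL and 76.0, 119, 97.8 and 491 CPM in T3. The T3 values lay between those of CTRL replicates 2 and 3 and those of CTRL replicates 1, 4 and 5. With the brain marker covariate the median of the 12 markers was -1.03.

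Several lists took their sign, or for fibroblasts most of their size, from T3 replicate 4. All 17 fibroblast genes tested were positive, with a median of 1.11, and T3 replicate 4 was the highest of 9 libraries in 16. Without it 12 were still positive, against 44.4% of all genes, with a median of 0.10. Fn1, fibronectin, stood at 0.168 to 7.62 CPM in CTRL, 2.31 to 13 CPM in T3 replicates 1 to 3 and 145 CPM in T3 replicate 4. Neuron markers gave 11 of 13 positive and a median of 1.34, then 2 of 13 and -0.87, and T3 replicate 4 was highest in all 13. The matrix and basement membrane list went from 32 of 35 and 0.35 to 13 of 35 and -0.10, with T3 replicate 4 highest in 26 genes (27.8% of all genes tested). For pericytes and smooth muscle the medians were 0.27 and -0.40, and for endothelium 0.16 and -0.29. In the other direction, 2 of 30 nuclear genes of the respiratory chain were positive with all libraries (median -0.12) and 18 without T3 replicate 4 (0.03), and T3 replicate 4 was the lowest library in 28 of them.

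**Figure D5:**
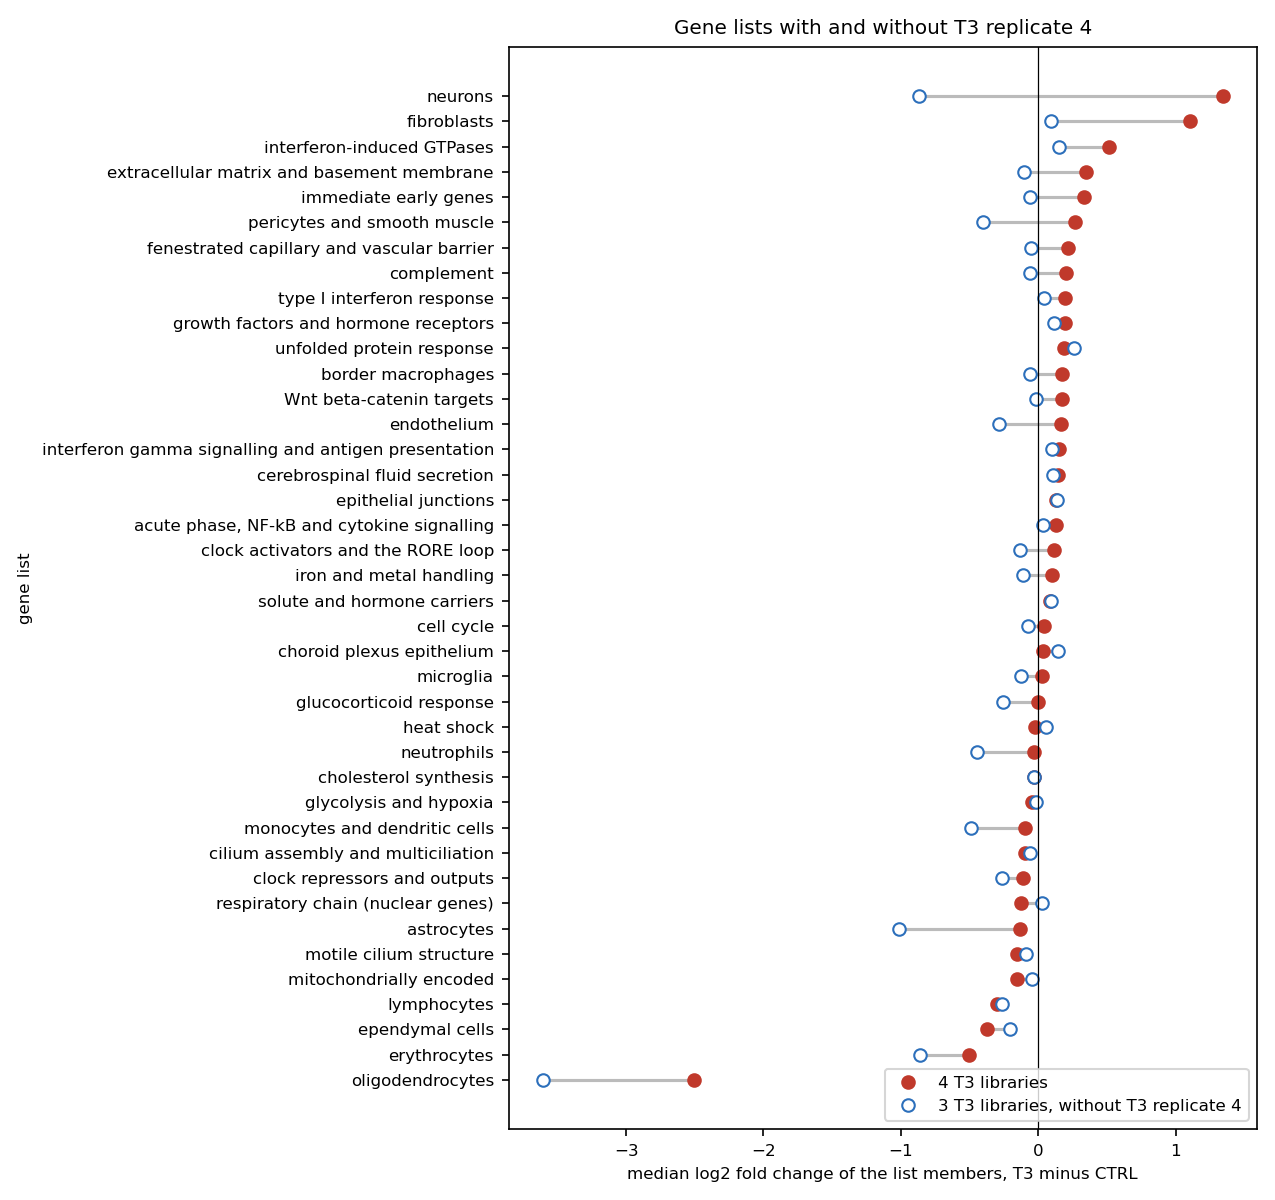
Median log2 fold change, T3 minus CTRL, of each of the 40 gene lists with all 4 T3 libraries (filled) and without T3 replicate 4 (open). Neurons (1.34 and -0.87) shift most and fibroblasts go from 1.11 to 0.10, while the unfolded protein response stands at 0.19 and 0.26 and oligodendrocytes at -2.51 and -3.61.

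The genes that most set T3 replicate 4 apart came from several sources. Scn4b, a sodium channel subunit, stood at 34.3 CPM there and at 1.196 CPM or less in the other 8 libraries. Arpp21 (64.5 CPM, against at most 3.09), Penk, the enkephalin precursor (67.5, at most 4.86) and Slc17a7, a vesicular glutamate transporter (60.004, at most 3.72), are genes of neurons. Slc6a12 (66.8 CPM, at most 3.70) and Slc13a3 (125, at most 7.63), carriers of betaine and of dicarboxylates, and Slc9a2 (38.7, at most 2.69) are transporter genes. Acta2 (324 CPM, at most 26.4) and Myh11 (130, at most 8.36) encode contractile proteins of smooth muscle, and Adamtsl3 (29.1, at most 1.963) a matrix protein. Without this library the fibroblast median above kept its sign but not its size, and the matrix, mural and endothelial medians changed sign.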

How the data were processed

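Gene counts of 17 choroid plexus libraries were used as deposited by the authors, as raw counts per Ensembl gene. CPM are counts per 1000000 counts of the TMM-scaled library size. Per the submitters' processing notes, Trimmomatic 0.39, STAR 2.6.1b, featureCounts 1.6.4 and GRCm38 were used; their order, settings, strand mode, annotation and treatment of multiply mapped reads were not given in the sources used here. Near-identical genes (globins, H2 genes, Hspa1a and Hspa1b) may share reads. Symbols came from GENCODE M21, where 55394 of 55487 identifiers matched and 93 did not; 39303 genes had a read, and 0 columns belonged to no sample. Totals ran from 8875921 to 26839417 counts per library, and libraries were thinned to 8875921 counts to compare detected genes.

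Counts were analysed with edgeR 4.0.16 in R 4.3.3: TMM factors, filterByExpr by group, and the robust quasi-likelihood F test over all 17 libraries with 1 mean per group, so that the T1 and T5 libraries add to the estimate of spread. The p-values thus rest partly on libraries of these other DSS treatments. P-values were adjusted by Benjamini-Hochberg over all genes tested, at a threshold of 0.05. CPM are given as mean ± SD over libraries. The standard error of a log2 fold change is its size divided by the square root of F, and is approximate. Log2 CPM used a prior count of 2. The coefficient of biological variation was 37.6%. Alternatives were DESeq2 1.42.0, limma 3.58.1 (voom with quality weights), other scalings and filters, subsets of libraries, a brain marker covariate and leaving out each library. Scripts were tested on simulated data.

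The comparison, the 40 gene lists (14 of cell types, 26 of pathways; 765 symbols, all matched) and the tests were chosen with earlier results of these data known. Named genes were, by rule, the 8 higher and 8 lower genes of at least 1 mean CPM whose groups did not overlap, whose sign held without T3 replicate 4 and whose larger p of the 2 fits was smallest, up to 4 members of each list with the smallest p, preset clock, barrier, cilium, matrix and interferon genes, and the 10 genes furthest above the other 8 libraries in T3 replicate 4. Hspa5, Pdia3, Pdia6, Hsp90b1, Creld2, Dnajb9, Asns, Bpgm, Lepr and the wider export list were chosen after their values were seen. Some further list members named in the text, Atf4 among them, were also outside the rule. Some genes that the rule or the lists hold are not reported here. Promoters were RefSeq windows from 250 bases before to 50 after each start.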

Additional observations from a re-analysis of the deposited data

Results flagged for a closer look

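In 63 of 324 groups of 4 or 5 libraries checked (19.4%) 1 library lay far from the rest by Dixon's gap test; chance gives about 1 in 20. The library was T3 replicate 4 in 48 of the 50 T3 groups, and 13 were in CTRL. The items checked include 10 genes named because they stood highest above the other libraries in T3 replicate 4, and list members named for a small p, so the share cannot be read against that chance. No explanation was tested.

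CTRL replicate 1 had the highest share of long noncoding counts in CTRL, 0.947%, with the next at 0.773%. T3 replicate 4 held 26250 detected genes at equal depth, with the next T3 library at 20971. Genes over 2-fold above all other libraries numbered 664 in T3 replicate 4 and 64 in CTRL replicate 5.

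Among mean log2 CPM of gene lists, T3 replicate 4 was far above the other T3 libraries for endothelium 4.29, fibroblasts 6.30, monocytes and dendritic cells 0.57, erythrocytes 5.32, astrocytes 6.40, clock repressors and outputs 4.54, complement 4.19, fenestrated capillary and vascular barrier 5.26, solute and hormone carriers 7.23 and extracellular matrix and basement membrane 5.24. It was far below them for choroid plexus epithelium 10.10, respiratory chain (nuclear genes) 8.10 and mitochondrially encoded 9.70. Other libraries far from their group on this scale were choroid plexus epithelium in CTRL replicate 1 (9.94, lowest), unfolded protein response in CTRL replicate 1 (6.68, lowest), cholesterol synthesis in CTRL replicate 1 (4.44, lowest), cholesterol synthesis in T3 replicate 1 (4.93, highest).

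Among single genes, T3 replicate 4 had the highest CPM of T3 by a wide gap for Bhlhe41 6.39, Cry2 42.6, Syvn1 55.3, Rhou 4.78, Gbp4 9.11, Lcn2 3.38, Pecam1 40.5, Vwf 35.5, Tjp1 61.7, Cdh1 66.6, Dkk3 108, Alas2 35.1, Mbp 491, Mog 7.95, Slc17a7 60.004, Fn1 145, Col1a2 263, Myh11 130, Acta2 324, Scn4b 34.3, Arpp21 64.5, Slc6a12 66.8, Slc13a3 125, Penk 67.5, Slc9a2 38.7, Adamtsl3 29.1, Asns 14.960, Col6a2 66.4, Cnn1 20.6, Ccn1 25.016, Slc6a13 162, Snap25 142 and Nefm 12.1. Other libraries far from their group in CPM were Sel1l in CTRL replicate 1 (74.6, lowest), Rapgef1 in CTRL replicate 1 (17.2, highest), Rapgef1 in T3 replicate 1 (7.51, lowest), Kmt5a in CTRL replicate 2 (32.2, lowest), Lcn2 in CTRL replicate 5 (2.02, highest), Cdh5 in CTRL replicate 1 (4.97, highest), Dkk3 in CTRL replicate 3 (33.6, lowest), Myh11 in CTRL replicate 1 (8.36, highest), Bmp4 in CTRL replicate 2 (29.045, highest).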

How the results depend on the processing

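No paired analysis was possible because the titles carry unique running numbers and no replicate numbers shared between groups. edgeR called 0 genes under each of its settings, with 838 at an unadjusted p under 0.05. DESeq2 called 2 genes. Genes at an unadjusted p under 0.05 came to 2095 with no filter on low counts (39303 tested) and to 398 with CTRL replicate 1 and T3 replicate 4 both left out, and leaving out 1 library at a time gave 551 to 1016. Of 880 list medians under the alternatives 845 moved by less than the spread between replicates and 35 moved by more, and 97 of 117 single genes had 1 direction throughout. The cause was not tested for any of them. The 4 alternatives that leave T3 replicate 4 out of another fit, or leave it out with CTRL replicate 1, were added after seeing the data. The fit of libraries of running number under 28 also leaves out T3 replicate 4, together with T1 replicates 2 to 4. It is therefore not independent of the fits without T3 replicate 4.

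Medians of log2 fold changes moved for some lists. Here clock activators stands for the list of the activating limb and its feedback loop, repressors in it included. With no filter on low counts the values were 0.48 for lymphocytes. With a minimum mean of 1 CPM the values were 0.61 for monocytes and dendritic cells. With limma-voom the values were -0.15 for iron handling. In libraries of running number under 28 the values were 0.11 for fibroblasts, -0.85 for neurons, -0.13 for clock activators, -0.090 for matrix and -0.10 for iron handling. With only CTRL and T3 libraries fitted and T3 replicate 4 left out the values were 0.10 for fibroblasts, -0.88 for neurons, -0.088 for clock activators, -0.075 for matrix and -0.11 for iron handling. With DESeq2 and T3 replicate 4 left out the values were 0.11 for fibroblasts, -0.91 for neurons, -0.12 for clock activators, -0.087 for matrix and -0.098 for iron handling. With limma-voom and T3 replicate 4 left out the values were 0.17 for fibroblasts, 0.017 for glycolysis and hypoxia, -0.067 for matrix and -0.17 for iron handling. With CTRL replicate 1 and T3 replicate 4 both left out the values were -0.53 for neurons, 0.082 for growth factors and hormone receptors and -0.16 for iron handling. Leaving out 1 library at a time gave the following ranges of medians: clock repressors and outputs -0.26 to 0.030, oligodendrocytes -3.61 to -1.40, erythrocytes -0.86 to -0.30, unfolded protein response 0.11 to 0.26, fibroblasts 0.096 to 1.37, neutrophils -0.45 to 1.34, monocytes and dendritic cells -0.49 to 0.47, lymphocytes -0.37 to 0.18, neurons -0.87 to 1.68, clock activators -0.13 to 0.14, interferon gamma signalling and antigen presentation 0.048 to 0.18, matrix -0.10 to 0.50, iron handling -0.11 to 0.10.

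Some single genes reversed their log2 fold change. With limma-voom the values were -0.020 for Cry2, -0.077 for Pecam1 and -0.35 for Asns. In libraries of running number under 28 the values were -0.030 for Hlf, -0.092 for Cry2, -0.27 for Lcn2, -0.44 for Cdh5, -0.28 for Pecam1, -0.12 for Tjp1, -0.046 for Myh11, -0.11 for Scn4b, -0.17 for Penk, 0.043 for Ttr, -0.48 for Asns and -0.51 for Snap25. With the brain marker covariate the values were -0.074 for Asns. With only CTRL and T3 libraries fitted and T3 replicate 4 left out the values were -0.034 for Hlf, -0.096 for Cry2, -0.27 for Lcn2, -0.45 for Cdh5, -0.29 for Pecam1, -0.13 for Tjp1, -0.053 for Myh11, -0.12 for Scn4b, -0.19 for Penk, 0.040 for Ttr, -0.49 for Asns and -0.53 for Snap25. With DESeq2 and T3 replicate 4 left out the values were -0.026 for Hlf, -0.086 for Cry2, -0.29 for Lcn2, -0.45 for Cdh5, -0.27 for Pecam1, -0.11 for Tjp1, -0.055 for Myh11, -0.12 for Scn4b, -0.012 for Slc13a3, -0.20 for Penk, 0.047 for Ttr, -0.48 for Asns and -0.54 for Snap25. With limma-voom and T3 replicate 4 left out the values were -0.058 for Cry2, -0.063 for Cdh5, -0.18 for Pecam1, -0.024 for Tjp1, 0.021 for Ttr and -0.44 for Asns. With CTRL replicate 1 and T3 replicate 4 both left out the values were -0.068 for Cry2, -0.44 for Lcn2, -0.12 for Pecam1, -0.068 for Tjp1, -0.46 for Asns and -0.028 for Snap25. Leaving out 1 library at a time gave the following ranges of log2 fold changes: Clock -0.040 to 0.14, Bhlhe40 -0.45 to 0.014, Rora -0.13 to 0.011, Hlf -0.042 to 0.66, Per1 -0.40 to 0.050, Per2 -0.29 to 0.030, Per3 -0.55 to 0.14, Cry2 -0.10 to 0.17, Lcn2 -0.26 to 1.56, Cdh5 -0.47 to 0.69, Pecam1 -0.29 to 0.59, Cldn2 -0.052 to 0.16, Tjp1 -0.13 to 0.55, Myh11 -0.069 to 3.63, Scn4b -0.14 to 5.11, Slc13a3 -0.011 to 3.35, Penk -0.20 to 3.04, Ttr -0.26 to 0.036, Asns -0.49 to 0.20, Snap25 -0.54 to 1.83.

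Depth limits genes of low count: 6 of 12 neutrophil and 6 of 15 lymphocyte markers passed the filter, and values near 1 CPM rest on few reads. The number of libraries, 4 against 5, limits the precision of every fold change.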
